A study of Homo sapiens with 18 samples.

Results

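Open chromatin was examined around 7 genes of the BCL2 family: BCL2L11 (the protein BIM), BMF, BBC3 (PUMA), PMAIP1 (NOXA), BCL2, BCL2L1 (BCL-XL) and MCL1. A locus was the gene body with 50 kb on either side, in hg19 coordinates, and its members were all accessible regions that touched this window in any library. They numbered 78 of the 79483 regions called over the whole series: 17 at BMF, 12 at MCL1, 11 each at PMAIP1 and BCL2L1, and 9 each at BCL2L11, BBC3 and BCL2.

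The regions come from 18 ATAC-seq libraries, 3 in each of 6 groups, of PC9, an established lung adenocarcinoma line driven by mutant EGFR. ATAC-seq marks open DNA by where a transposase inserts adapters. The PC9 group was unsorted cells in DMSO vehicle, and the DTP group (drug-tolerant persisters) was the cells still alive after 8 days of 1 µM erlotinib, which inhibits the EGFR kinase. In the remaining groups, cells received DMSO or 1 µM erlotinib for 12 h and were then sorted by Aldefluor, a fluorescent readout of aldehyde dehydrogenase activity, giving ALDH-low DMSO, ALDH-high DMSO, ALDH-low erlotinib and ALDH-high erlotinib. All groups are 1 cell line, were frozen and thawed before tagmentation, and carry the letters a, b and c within a group. Nothing states that the letters are separate cultures, so the spread between them may be technical. DTP and PC9 were not sorted, and DTP differs from the 12 h groups in time as well as in sorting.

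Mitochondrial apoptosis is decided by binding among BCL2 family proteins. BCL2, BCL-XL and MCL1 hold the pore formers BAX and BAK in check at the outer mitochondrial membrane, and the BH3-only proteins BIM, PUMA, NOXA and BMF bind those guardians and free the pore formers. In EGFR-mutant lung cancer cells, BIM is well known as a mediator of killing by EGFR inhibitors, and loss of MAPK signalling stabilizes BIM and relieves its repression. PUMA and NOXA were first known as targets of p53, NOXA binds mainly MCL1, and BMF responds to detachment and stress.

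The sequences just before the annotated starts are shown for the BH3-only genes, because the 5′ ends of these genes were called in very different numbers of libraries, from all 18 at BCL2L11 and PMAIP1 to 1 at BBC3. They are the 250 bases upstream of the start in RefSeq, GRCh38.p14, and the coordinates belong to that build and cannot be set beside the hg19 positions used elsewhere. BCL2L11 is at chr2:111120664-111120913 on the plus strand, BMF (its first listed start) at chr15:40108880-40109129 on the minus strand, BBC3 at chr19:47232668-47232917 on the minus strand and PMAIP1 at chr18:59899746-59899995 on the plus strand. Each is written 5′ to 3′ on the gene's strand, and capitals mark matches on either strand to the FOXO motif GTAAACA, the AP-1 motif TGANTCA or the GC box GGGCGG.
BCL2L11: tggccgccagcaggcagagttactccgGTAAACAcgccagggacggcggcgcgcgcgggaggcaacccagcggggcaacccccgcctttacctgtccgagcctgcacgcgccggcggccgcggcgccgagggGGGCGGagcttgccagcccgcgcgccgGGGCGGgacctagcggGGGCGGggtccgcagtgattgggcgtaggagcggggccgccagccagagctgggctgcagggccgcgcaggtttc
BMF: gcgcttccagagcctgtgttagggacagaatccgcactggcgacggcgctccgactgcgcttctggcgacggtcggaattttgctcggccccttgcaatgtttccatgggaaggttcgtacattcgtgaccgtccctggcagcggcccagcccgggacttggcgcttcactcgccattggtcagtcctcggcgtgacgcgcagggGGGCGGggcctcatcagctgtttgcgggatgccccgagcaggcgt
BBC3: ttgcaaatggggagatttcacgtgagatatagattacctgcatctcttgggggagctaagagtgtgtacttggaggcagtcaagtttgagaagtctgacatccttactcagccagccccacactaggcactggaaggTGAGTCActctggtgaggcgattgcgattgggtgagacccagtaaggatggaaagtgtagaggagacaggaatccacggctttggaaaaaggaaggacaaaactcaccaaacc
PMAIP1: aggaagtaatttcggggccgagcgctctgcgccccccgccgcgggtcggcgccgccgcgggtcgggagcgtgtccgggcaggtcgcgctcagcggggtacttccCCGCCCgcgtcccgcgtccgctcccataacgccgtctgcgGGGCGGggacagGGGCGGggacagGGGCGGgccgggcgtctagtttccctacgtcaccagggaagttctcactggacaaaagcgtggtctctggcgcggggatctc

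The BCL2L11 window held 1 FOXO match, 3 GC boxes and 34 CpG dinucleotides. The PMAIP1 window held 4 GC boxes and 36 CpG, and the BMF window 1 GC box and 26 CpG. The BBC3 window held no GC box, 1 AP-1 match and 4 CpG, with a GC content of 49.2% against 76.8% at BCL2L11. Over the 35116 windows of the table the median was 11 CpG, a FOXO match occurred in 2.98%, an AP-1 match in 6.57% and a GC box in 42.6%. Windows were matched for 6 of the 7 genes. BCL2 had 24 CpG and the first window of BCL2L1 had 17, each without any of these motifs. A match is a run of letters, not a bound site.

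Each library came as 1 list of peaks. A region, the union of peaks that overlapped across libraries, was held by a library with at least 1 peak in it. A region not held was not called in that list, which can also follow from depth, and depth is unknown for these files. Lists ran from 26225 to 45241 peaks, and list length moved with the groups: the DMSO sorted lists had 26225 to 32819 peaks and the erlotinib sorted lists 32583 to 40710. Results are therefore also given after each list was cut to its top 26225 peaks by score, called lists of equal size here. The number of member regions held was 32.0 ± 1.73 (SD, n = 3) in ALDH-low DMSO, 38.0 ± 1.73 in ALDH-high DMSO, 41.0 ± 2.65 in ALDH-low erlotinib, 48.0 ± 5.29 in ALDH-high erlotinib, 41.3 ± 1.53 in PC9 and 50.7 ± 2.31 in DTP. Member peaks made up between 0.105% (PC9) and 0.126% (ALDH-high erlotinib) of a list on average.

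Of the 78 regions, 14 (17.9%) were common to the 18 libraries and 12 (15.4%) were found in 1 library alone, beside 17.7% and 21.2% of all regions of the genome. MCL1 had the most constant locus, with 4 of 12 regions held throughout and none held by 1 library. BCL2L1 had 3 of 11 held throughout, BMF 2 of 17, BBC3 2 of 9, and BCL2L11, PMAIP1 and BCL2 1 each. By position, 7 regions lay at a gene's 5′ end, 21 in a gene body, 28 upstream and 22 downstream. Distances below run from the 5′ end of the gene to the middle of the region, along the direction of transcription, and the 5′ end is known only to the nearest kb. The windows also reach other genes, so a region belongs to a locus by distance only. Next to MCL1 lies ENSA, next to BCL2 lies KDSR and next to BCL2L1 lies TPX2. Next to BBC3 lies CCDC9, next to BMF lies SRP14 and next to BCL2L11 lies ACOXL. All of these except SRP14 are on the upstream side. Regions named as upstream may therefore belong to them. Regions named as downstream may also belong to neighbours, such as SRP14 at BMF and ADAMTSL4 at MCL1. Neither was tested.

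**Figure D1:**
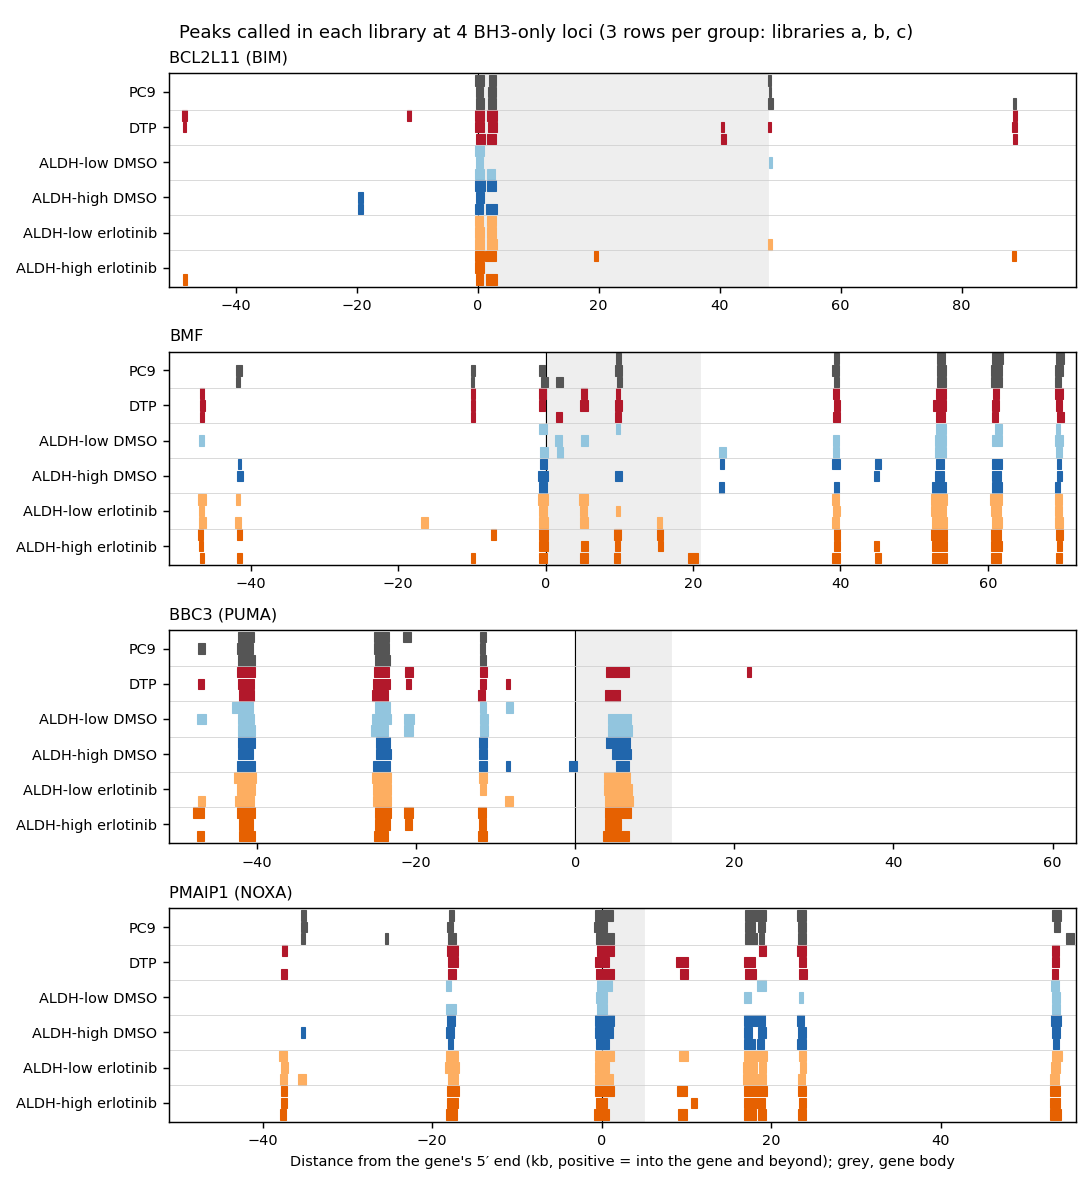
Regions at the 4 BH3-only loci, drawn by distance from the gene's 5′ end (kb, horizontal) for each of the 18 libraries (rows, grouped). Regions at the 5′ ends of BCL2L11 and PMAIP1 appear in all 18 rows, whereas the 5′ end of BBC3 has a call in 1.

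At BCL2L11, which encodes BIM, the region over the 5′ end was called everywhere and little else was shared. This region (chr2:111877480-111879174, 1695 bp) was held by 18 of 18 libraries, and a second region starting 1 bp beyond it (chr2:111879176-111881140) by 14. Scores were compared as percentiles, the share of a list's peaks with a lower score, ties shared evenly. In lists of equal size the 5′ region stood at 61.0, 64.7 and 38.4 in ALDH-low DMSO, 49.8, 53.1 and 10.01 in ALDH-high DMSO, 32.7, 66.4 and 55.2 in ALDH-low erlotinib, and 75.6, 69.2 and 69.6 in ALDH-high erlotinib. The 3 ALDH-high erlotinib libraries were the highest of the 12, but the ALDH-low erlotinib libraries overlapped both DMSO groups. Over the 12 sorted libraries, with treatment labels exchanged within fractions, the erlotinib mean of 61.5 was 15.3 points above the DMSO mean of 46.2 (exact permutation p = 0.195).

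In PC9 the same region stood at 31.8, 18.2 and 28.8. Of the DTP libraries, b and c stood at 52.1 and 57.8, and a was outside the equal-size list. The other 7 regions of BCL2L11 were held by 1 to 6 libraries. One of them, 88.8 kb downstream of the 5′ end (chr2:111966272-111967250), was held by DTP a, b and c, PC9 c and ALDH-high erlotinib a. No region of this locus was gained or lost in any of the 5 comparisons.

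BBC3, which encodes PUMA, was the only one of the 7 genes without a regularly called 5′ end. A region there (chr19:47735819-47736756) was held by 1 library, ALDH-high DMSO c, at the 9.05 percentile of its full list. The region inside the gene body 5.4 kb from the 5′ end (chr19:47728692-47732503) was the widest of the locus at 3812 bp and was held by 13 libraries. It was held by none of the PC9 libraries, 2 of DTP, 2 of ALDH-low DMSO and all 3 of each of the other groups. No other region in the genome had this pattern of calls over the 18 libraries. The same held for the patterns of other members, such as the region at the BMF 5′ end, so it is not particular to this region. Further upstream, regions at 24.4 kb (chr19:47759108-47761661) and 41.6 kb (chr19:47776083-47779155) were held by all 18. Both lie on the side of the neighbour CCDC9, and to which gene they belong was not tested.

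The upstream BBC3 regions did not separate by treatment. At 41.6 kb the erlotinib mean was the 74.1 percentile and the DMSO mean 75.9 (exact permutation p = 0.76), and at 24.4 kb the means were 71.7 and 73.3 (exact permutation p = 0.82). At 24.4 kb the PC9 libraries stood at 20.8, 1.22 and 42.6 and the DTP libraries at 46.5, 50.1 and 63.5, so all DTP values lay above all PC9 values.

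PMAIP1, which encodes NOXA, had a constant 5′ end and a region upstream that was called under erlotinib and in no sorted DMSO library. The 5′ region (chr18:57566047-57568502, 2456 bp) stood at 63.2, 75.2 and 52.4 in ALDH-low DMSO, 72.8, 76.5 and 62.2 in ALDH-high DMSO, 71.7, 74.6 and 72.4 in ALDH-low erlotinib, and 90.6, 80.5 and 74.7 in ALDH-high erlotinib. The groups overlapped, with means of 77.4 and 67.0 (difference 10.4 points, exact permutation p = 0.05, adjusted over the genome 0.195). In DTP the same region stood at 44.0, 49.9 and 32.2, below the PC9 values of 54.3, 62.6 and 57.3.

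The region 37.5 kb upstream of PMAIP1 (chr18:57528965-57529995, 1031 bp) was held by 6 of 6 erlotinib and 0 of 6 DMSO sorted libraries. It was also held by DTP a and c and by no PC9 library. Its peaks ranked low, at the 28.2, 32.8 and 8.33 percentiles of the full lists in ALDH-low erlotinib and at 31.9, 30.1 and 50.2 in ALDH-high erlotinib, and 3 of the 6 reached the lists of equal size. A neighbouring region 35.3 kb upstream (chr18:57531144-57532238) had the opposite pattern in the unsorted cells: PC9 a, b and c held it, no DTP library did, and 2 of the 12 sorted libraries did. At 53.6 kb downstream (chr18:57619845-57621274) all 12 sorted libraries held a region, with percentiles of 36.8, 25.3 and 6.82 in ALDH-low DMSO, 35.1, 43.9 and 31.0 in ALDH-high DMSO, 43.4, 34.1 and 68.3 in ALDH-low erlotinib, and 43.2, 63.6 and 62.1 in ALDH-high erlotinib. Its erlotinib mean was 22.6 points higher (exact permutation p = 0.02, adjusted 0.111).

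BMF, the BH3-only gene named for the protein's BCL2-modifying action, had the largest number of regions and the largest rank difference among the 13 member regions tested. The region 53.3 kb from its 5′ end (chr15:40346562-40348755, 2194 bp), beyond the 3′ end of the gene, was held by all 18 libraries. This region lies on the side of the neighbour SRP14, and to which gene it belongs was not tested. It stood at 47.8, 65.0 and 67.5 in ALDH-low DMSO and 54.9, 79.6 and 79.7 in ALDH-high DMSO. Under erlotinib it stood at 96.3, 96.0 and 97.3 in ALDH-low and 91.0, 94.5 and 96.2 in ALDH-high. Every erlotinib library lay above every DMSO library. The means were 95.2 and 65.7, a difference of 29.5 points with the smallest p the design allows (exact permutation p = 0.005, adjusted 0.0521). PC9 stood at 57.9, 60.8 and 77.4 and DTP at 71.6, 75.1 and 72.9, which overlapped and lay below the 12 h erlotinib values.

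At 39.4 kb from the BMF 5′ end (chr15:40360996-40362193) the region was in 3 of 6 DMSO equal-size lists, at the 13.3, 47.5 and 8.60 percentiles, and in all 6 erlotinib lists, at 61.0, 51.3 and 58.8 in ALDH-low and 26.5, 39.2 and 41.2 in ALDH-high. The treatments overlapped across fractions but not within them. The region 46.6 kb upstream (chr15:40447066-40448108) was held by 6 erlotinib libraries, by ALDH-low DMSO b, by all 3 DTP libraries and by no PC9 library. Its peaks stood between the 5.10 and 30.05 percentiles of the full lists in DTP and between 5.81 and 71.4 under 12 h erlotinib. The region at the BMF 5′ end (chr15:40400660-40402011) was held by 15 libraries and missing in PC9 a, DTP c and ALDH-low DMSO b.

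**Figure D2:**
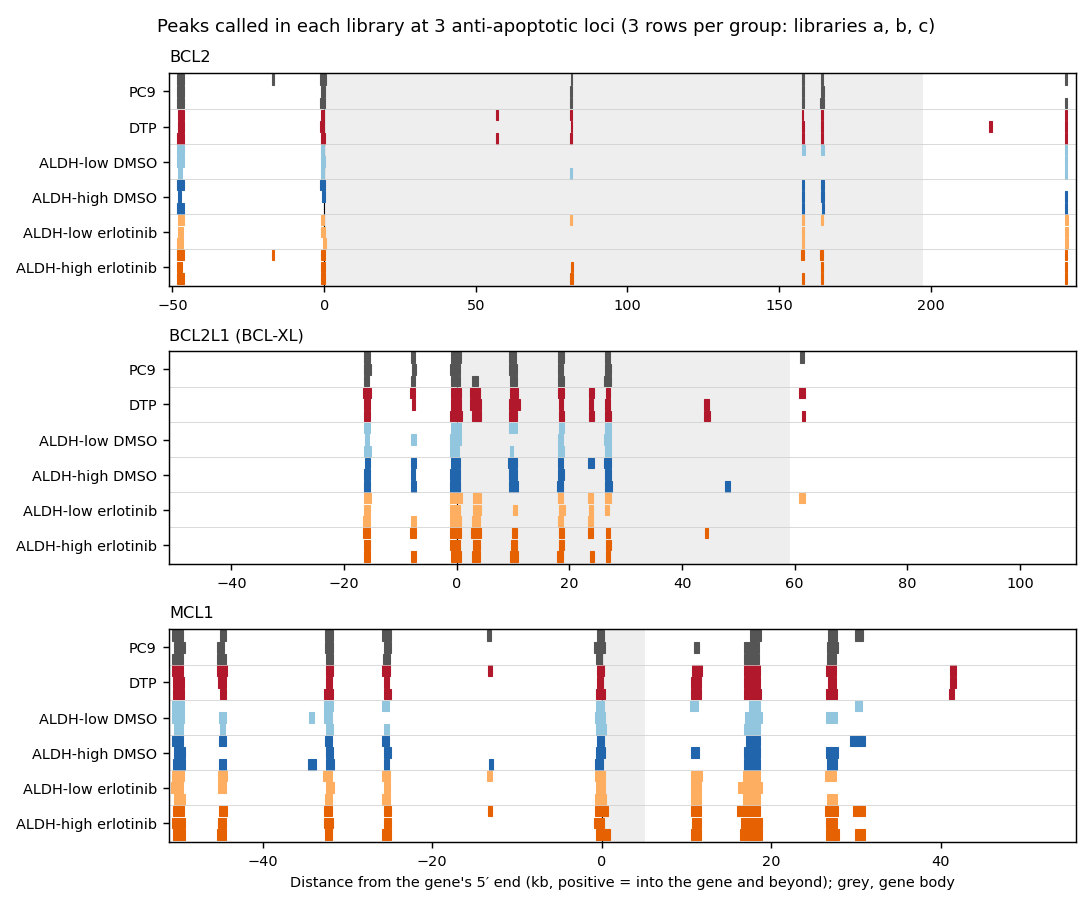
Regions at the loci of the guardians BCL2, BCL2L1 and MCL1, drawn as for the BH3-only genes by distance from the 5′ end (kb). In BCL2L1 a region 3.3 kb into the gene appears in all 6 erlotinib rows and in none of the 6 sorted DMSO rows.

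BCL2, which encodes the founding guardian of the family, had 9 regions, of which 1 was held by all 18 libraries. The strongest region of the window lay 47.3 kb upstream (chr18:61033114-61035535, 2422 bp), on the side of the neighbour KDSR. To which gene it belongs was not tested. All 18 libraries held it, with percentiles from 79.5 to 93.3 in lists of equal size. The means were 88.6 under erlotinib and 87.9 under DMSO (exact permutation p = 0.75). In its weakest library this region stood at the 84.3 percentile of the full list, the highest such value among the 78. The region at the 5′ end (chr18:60986425-60988444) was held by 17 libraries and missing in ALDH-high DMSO c. In PC9 it stood at the 55.4, 34.0 and 61.3 percentiles of the full lists and in DTP at 11.8, 26.7 and 43.2, which overlapped.

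BCL2L1, which encodes BCL-XL, had regions that differed in opposite directions within the gene. The region 3.3 kb from the 5′ end (chr20:30306679-30308728, 2050 bp) was held by 6 of 6 erlotinib and 0 of 6 DMSO sorted libraries. Its percentiles in lists of equal size were 68.8, 46.2 and 79.0 in ALDH-low erlotinib and 57.1, 55.2 and 38.8 in ALDH-high erlotinib. Outside the sorted groups it was held by all 3 DTP libraries, at 40.5, 28.2 and 39.1 of the full lists, and by PC9 c at 20.04. The same pattern of calls over all 18 libraries occurred in 35 other regions of the genome.

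The region 26.8 kb from the 5′ end (chr20:30283502-30284825, 1324 bp) went the other way. In lists of equal size it stood at 65.0, 70.8 and 64.0 in ALDH-low DMSO and 62.1, 88.5 and 84.2 in ALDH-high DMSO. Under erlotinib it stood at 22.2 and 9.82 in ALDH-low a and b and at 12.9 and 37.0 in ALDH-high b and c, and was not in the lists of ALDH-low c and ALDH-high a. All DMSO values lay above all erlotinib values. PC9 stood at 96.6, 84.5 and 91.1 and DTP at 52.3, 38.4 and 47.1, without overlap between those groups.

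Nearer the 5′ end of BCL2L1, the region at 10.2 kb (chr20:30299740-30301835) was in 5 of 6 DMSO and 2 of 6 erlotinib equal-size lists. At the 5′ end (chr20:30310129-30312272) all 18 libraries held a region. Its percentiles there were 45.9, 65.3 and 24.1 in ALDH-low DMSO and 4.15, 39.8 and 48.4 in ALDH-high DMSO, against 9.82 and 28.4 in ALDH-low erlotinib b and c and 6.01 and 14.6 in ALDH-high erlotinib b and c. Both a libraries under erlotinib fell outside the equal-size lists, and the treatments overlapped in both fractions. The region 23.8 kb from the 5′ end (chr20:30286621-30287692) was held by all DTP libraries and no PC9 library, and by 5 erlotinib and 1 DMSO sorted library.

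MCL1, which encodes a short-lived guardian, had strong and constant regions in its window, and 1 region called mainly under erlotinib and in DTP. The regions at 17.4 kb (chr1:150533071-150536047, 2977 bp, downstream) and across the upstream edge of the window (chr1:150601191-150602795) stood at or above the 70.2 percentile in every full list. The region across the edge lies on the side of the neighbour ENSA, and that at 17.4 kb on the side of ADAMTSL4. To which genes they belong was not tested. At 17.4 kb the percentiles in lists of equal size were 82.7, 89.5 and 79.7 in ALDH-low DMSO, 76.8, 70.2 and 77.5 in ALDH-high DMSO, 93.9, 87.5 and 90.05 in ALDH-low erlotinib, and 79.1, 87.8 and 83.4 in ALDH-high erlotinib. The treatment means were 87.0 and 79.4 (difference 7.56 points, exact permutation p = 0.015, adjusted 0.0940). The ALDH-high fraction was lower in this region by fraction labels exchanged within treatments, a difference of -8.10 points (exact permutation p = 0.01, adjusted 0.382).

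The region 11.1 kb downstream (chr1:150540162-150541572, 1411 bp) stood at 82.5, 58.4 and 77.9 in ALDH-low erlotinib and 60.1, 88.1 and 60.9 in ALDH-high erlotinib. Of the 6 DMSO libraries, only ALDH-low DMSO a had it in the equal-size list, at 5.28, and ALDH-high DMSO b had it at the 2.26 percentile of its full list. DTP stood at 63.2, 68.5 and 54.5, and 1 PC9 library, b, held it, at the 29.6 percentile of its full list. The MCL1 5′ end (chr1:150550997-150552876) was held by all 18, with means of 58.7 under erlotinib and 47.5 under DMSO (exact permutation p = 0.19). A region 41.4 kb downstream (chr1:150510165-150511079) was held by the 3 DTP libraries and by none of the other 15, a pattern seen in 1860 other regions of the genome.

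**Figure D3:**
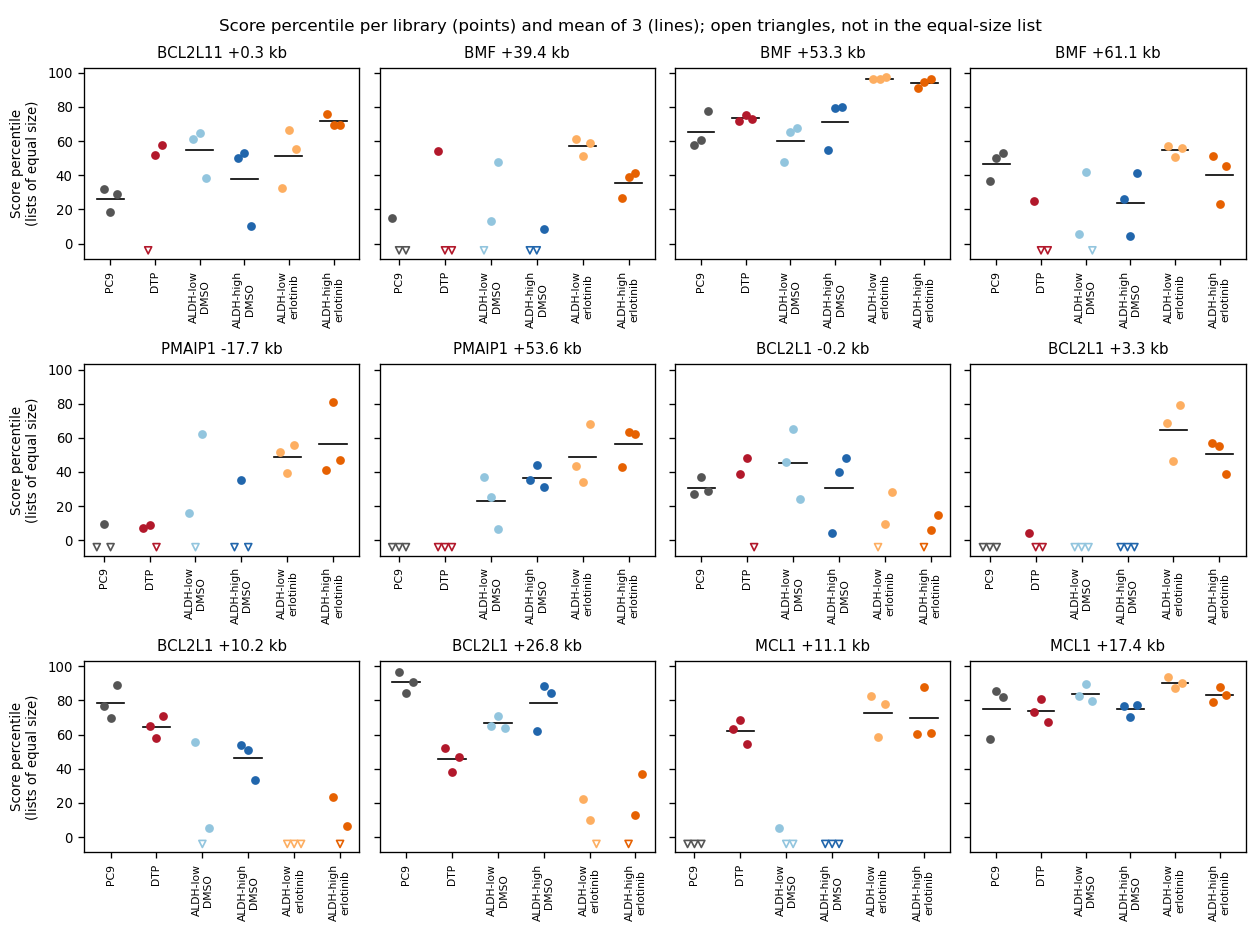
Score percentile in lists of equal size (vertical, 0 to 100) for 12 member regions (panels, with distance from the 5′ end in kb) in each library (points, 3 per group), with the mean of a group (lines) and libraries that lack the region in that list (open triangles). Besides the BCL2L11 5′ end, the panels are the 8 higher and 3 lower of 34 regions at unadjusted exact permutation p under 0.05, with missing libraries at percentile 0. They were chosen for differing by treatment and do not typify the members. The BMF region at 53.3 kb is between 91.0 and 97.3 in the 6 sorted erlotinib libraries, and the BCL2L1 region at 26.8 kb is at or below 37.0 in the 4 of them that list it.

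The groups were then compared region by region. A gained region had a call in all 3 libraries of the first group and in none of the second, and a lost region the opposite, a rule that gives no p since 3 against 3 libraries cannot go below an exact permutation p of 0.1. Between DTP and PC9, 3 of the 66 member regions held by any of the 6 libraries were gained, where the genome gave 6.75%, and 1 was lost, where the genome gave 3.68%. The gained regions were those 46.6 kb upstream of BMF, 23.8 kb into BCL2L1 and 41.4 kb downstream of MCL1, and the lost region was the one 35.3 kb upstream of PMAIP1.

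Erlotinib against DMSO for 12 h gained 3 of 57 member regions in ALDH-low cells (genome 6.82%) and lost 0 (genome 0.887%). In ALDH-high cells it gained 3 of 66 (genome 4.52%) and lost 0 (genome 0.998%). The PMAIP1 region at 37.5 kb and the BCL2L1 region at 3.3 kb were gained in both fractions, 2 regions where the genome gave 1.55% of 64525, and 0 were lost in both, where the genome gave 0.16%. The BCL2L1 region at 23.8 kb was gained in ALDH-low cells, and the BMF region at 46.6 kb in ALDH-high cells, a difference between fractions that was not tested. ALDH-high against ALDH-low gained 0 and lost 0 of 55 member regions under DMSO (genome 1.28% and 0.14%) and 0 and 0 of 64 under erlotinib (genome 0.893% and 0.446%). BCL2L11, BBC3 and BCL2 had no gained or lost region in any of the 5 comparisons. In single comparisons the members' shares, 4.55% (DTP), 5.26% (ALDH-low) and 4.55% (ALDH-high) gained and 1.52% lost in DTP, were near or below those of the genome.

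**Figure D4:**
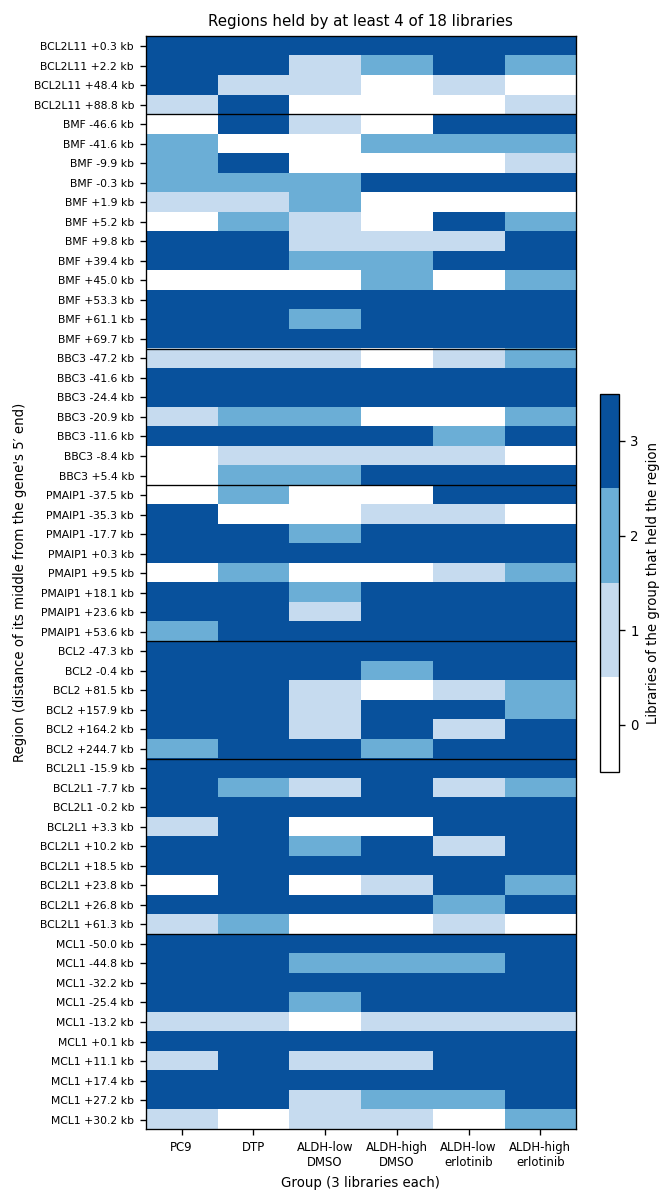
Number of libraries of each group (0 to 3, colour) that held each of the 56 member regions held by at least 4 of the 18 libraries (rows, by distance in kb of the region's middle from the 5′ end). The PMAIP1 region at 37.5 kb and the BCL2L1 region at 3.3 kb read 3 in both erlotinib groups and 0 in both sorted DMSO groups.

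Calls in the 12 sorted libraries were tested by exchanging treatment labels within the ALDH fractions. Of 14 member regions that could be tested, 3 were called more often under erlotinib at an unadjusted p under 0.05 and 0 less often, where the genome gave 21% and 2.72% of 13213. These were the PMAIP1 region at 37.5 kb and the BCL2L1 region at 3.3 kb (6 of 6 against 0 of 6, exact permutation p = 0.005, adjusted 0.0599 each) and the BMF region at 46.6 kb (6 of 6 against 1 of 6, exact permutation p = 0.02, adjusted 0.0843). None passed the adjusted threshold of 0.05, nor did any region of the genome, whose smallest adjusted p was 0.0599. When only regions able to reach p under 0.05 were tested, a choice made after seeing the data, all 3 passed. The share of genome regions that passed under this choice was not computed, so this is no result about the members. Between ALDH-high and ALDH-low, 0 of 11 testable member regions passed at unadjusted p (genome 1.57% higher and 0.125% lower).

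Score ranks were tested in lists of equal size. Of 13 member regions in all 12 lists, 3 were higher under erlotinib at an unadjusted exact permutation p under 0.05 (BMF 53.3 kb, PMAIP1 53.6 kb and MCL1 17.4 kb) and 0 lower, where the genome gave 12.6% and 12.1% of 12774. The median difference was 7.56 points over the members and 0.319 over all regions tested. None passed the adjusted threshold, for which the genome gave 0%. By fraction, 0 members were higher and 1 was lower at unadjusted p (MCL1 17.4 kb). The genome share at unadjusted p is not given for fraction, so this count is no result about the members.

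That test leaves out regions missing from some lists. Setting a missing library to percentile 0, over the 25650 regions held in at least 6 of the 12 equal-size lists, was added after seeing the data. Of 34 member regions, 8 were higher and 3 lower at unadjusted p under 0.05 (genome 16.2% and 14.6%). After adjustment, 4 were higher and 1 lower (genome 7.67% and 6.85%). Of the 4, the BCL2L1 region at 3.3 kb and the MCL1 region at 11.1 kb entered the test through the erlotinib lists, 6 of them against 0 and 1 DMSO lists, so their differences of 57.5 and 70.4 points restate the calls and are no separate result. The BMF region at 53.3 kb was in all 12 lists and rose by 29.5 points. This difference is the one already tested above, where its adjusted exact permutation p was 0.0521. Only the set of regions adjusted over changed, so its pass is no separate support. The BMF region at 39.4 kb was in 6 erlotinib and 3 DMSO lists, with a difference of 34.8 points. It met the requirement of 6 lists only through the erlotinib lists, where it was high. The BCL2L1 region at 26.8 kb was in 6 DMSO and 4 erlotinib lists and changed by -58.8 points, from a DMSO mean of 72.4 to an erlotinib mean of 13.6. Its 6 DMSO lists, where it was high, met the requirement alone. This difference and that at BMF 39.4 kb are therefore not independent of the filter. Each of the 5 had an exact permutation p of 0.005 and an adjusted p of 0.0344. Missing libraries count as 0 here, so these differences mix calling with rank. The call at BMF 39.4 kb was lost when ALDH-low erlotinib a, b or c was left out (33.8, 36.2 and 34.3 points, adjusted exact permutation p 0.0645, 0.0630 and 0.0624).

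For DTP against PC9, 15 member regions were in all 6 equal-size lists. Ranks did not overlap between the groups in 6 of them, 3 higher in DTP (genome 17.6% of 15104) and 3 lower (genome 17.3%), each with the smallest exact permutation p of 0.1. Higher in DTP were the regions 15.9 kb upstream of BCL2L1 (85.9 ± 8.81 against 59.0 ± 11.9, SD, n = 3), 24.4 kb upstream of BBC3 (53.4 ± 8.99 against 21.5 ± 20.7) and 27.2 kb downstream of MCL1 (45.8 ± 23.3 against 18.4 ± 7.02). Those of BCL2L1 and BBC3 lie on the sides of the neighbours TPX2 and CCDC9. Lower in DTP were the BCL2L1 region at 26.8 kb (45.9 ± 7.03 against 90.7 ± 6.04), the region 32.2 kb upstream of MCL1 (47.6 ± 15.5 against 84.7 ± 7.51) and the PMAIP1 5′ end (42.0 ± 9.01 against 58.0 ± 4.20). These member counts were near the genome shares. The BCL2L1 region at 26.8 kb was lower in both drug-treated settings, which share no library, but it was singled out after its values were seen. The share of genome regions lower in both was not computed, so this is no separate support.

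**Figure D5:**
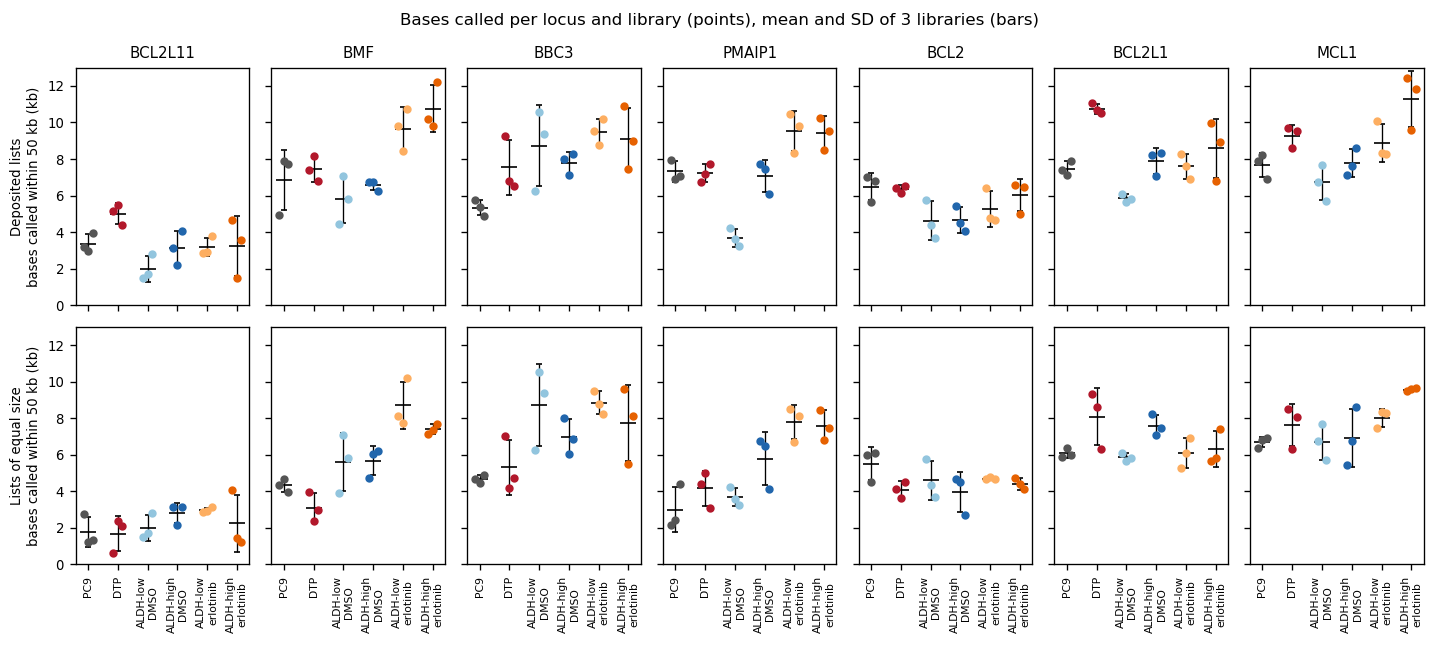
Called bases within 50 kb of each gene body (kb) in every library (points), with group means and SD (n = 3), for the deposited lists (upper row) and lists of equal size (lower row). At BMF, in the deposited lists, the 6 sorted erlotinib libraries lie between 8.417 and 12.215 kb, above all 6 sorted DMSO libraries.

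Accessibility over whole loci was summarized as the bases called within the window. At BMF the values were 4.46, 7.07 and 5.84 kb in ALDH-low DMSO, 6.75, 6.75 and 6.23 kb in ALDH-high DMSO, 9.82, 8.42 and 10.8 kb in ALDH-low erlotinib, and 10.2, 9.83 and 12.2 kb in ALDH-high erlotinib. At PMAIP1 they were 4.22, 3.61 and 3.24 kb, 7.71, 7.43 and 6.10 kb, 10.4, 8.34 and 9.81 kb, and 10.3, 8.49 and 9.53 kb in the same order. At MCL1 they were 6.77, 7.67 and 5.72 kb, 7.12, 7.62 and 8.61 kb, 10.1, 8.32 and 8.26 kb, and 12.4, 9.57 and 11.8 kb. Erlotinib and DMSO libraries did not overlap at BMF and PMAIP1. At MCL1 they overlapped across fractions but not within them.

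Called bases rose under erlotinib at 3 of the 7 loci, by 4.03 kb at BMF, 4.10 kb at PMAIP1 and 2.83 kb at MCL1 (exact permutation p = 0.005, adjusted 0.0332 each), and fell at none. Windows of 150 kb tiled over the genome passed the same threshold upwards in 20.2% and downwards in 0.424% of 15079. These windows have a fixed length and include any with a call, whereas the 7 loci are 105 to 297 kb wide around genes. Loci and windows are therefore not strictly comparable. The differences at BCL2L11 (0.65 kb, exact permutation p = 0.29), BBC3 (1.04 kb, p = 0.245), BCL2 (1.01 kb, p = 0.09) and BCL2L1 (1.22 kb, p = 0.06) did not pass. In lists of equal size the differences were 2.41 kb at BMF and 2.93 kb at PMAIP1 (exact permutation p = 0.005, adjusted 0.0578 each) and 1.96 kb at MCL1 (p = 0.01, adjusted 0.0802), where 0% of windows passed. The differences were thus smaller once list length was fixed, and none of the 3 calls held at the adjusted threshold in lists of equal size. In the deposited lists the MCL1 call was also lost without ALDH-high DMSO a, b or c or ALDH-low erlotinib a (2.53 to 3.04 kb), and the PMAIP1 call without ALDH-high DMSO c (3.85 kb), while BCL2L1 passed without ALDH-high erlotinib b (1.67 kb, adjusted exact permutation p = 0.0328). At BCL2L1 the difference in lists of equal size was -0.53 kb (exact permutation p = 0.26).

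Between the fractions, ALDH-high lists had 1.495 kb more called at BCL2L1 and 1.73 kb more at MCL1 (exact permutation p = 0.04, adjusted 0.539 each), and 0 loci and 0% of windows passed the adjusted threshold. List length also moved with fraction, with means of 26343 peaks in ALDH-low and 31210 in ALDH-high DMSO, and 36570 and 38542 under erlotinib. In lists of equal size the differences were 0.954 kb at BCL2L1 and 0.880 kb at MCL1 (exact permutation p = 0.07 and 0.17). Between DTP and PC9, called bases were higher in every DTP library than in every PC9 library at BCL2L1 (10.8 ± 0.275 against 7.47 ± 0.402 kb, SD, n = 3), BBC3 (7.55 ± 1.502 against 5.34 ± 0.422 kb), BCL2L11 (5.01 ± 0.570 against 3.38 ± 0.512 kb) and MCL1 (9.27 ± 0.601 against 7.68 ± 0.675 kb). Each had the smallest exact permutation p of 0.1, as did 25.8% of windows upwards and 8.41% downwards. BMF, PMAIP1 and BCL2 overlapped (exact permutation p = 0.8 each). In lists of equal size none of these 4 loci kept groups without overlap, with exact permutation p = 1 at BCL2L11, 0.8 at BBC3, 0.2 at BCL2L1 and 0.4 at MCL1, where 20.4% of windows reached 0.1 upwards and 11.1% downwards. BMF had the smallest p there, with DTP below PC9 by -1.23 kb.

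The choice of 50 kb set which regions counted. Just outside it lay a region 0.446 kb beyond the BCL2 window (chr18:60738581-60739554, held by 4 libraries), 1 at 1.297 kb before the BCL2L11 window (held by 9) and 1 at 1.906 kb from the BCL2L1 window (held by 18). The regions that straddled an edge, 1 at MCL1 (18 libraries) and 1 at PMAIP1 (1 library), were counted as members. Other genes of the pathway, among them BAX, BAK1 and BID, were not analysed here.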

How the data were processed

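ATAC-seq peaks of 18 PC9 libraries were deposited as 1 list per library. Per the submitters' processing notes, BWA, MACS 1.4.2 and the hg19 build were used. Trimming, duplicate handling, transposase shift and caller settings: not given in the sources used here. The authors' deposited score per peak has no stated scale, and its floor was 70 in every list. It was used to order and filter the peaks of 1 list, never across lists. Read depth is unknown.

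Overlapping peaks (at least 1 bp) of the autosomes and X formed 79483 regions. Groups came from the sample labels. Regions, called bases and score percentiles were tested by exact two-sided permutation tests of libraries, within strata for the 12 sorted libraries (400 assignments, smallest p 0.005), with Benjamini-Hochberg adjustment over all testable regions of the genome (those for which some labelling gives p under 0.1), all regions in the 12 equal-size lists, or the 7 loci with all 150 kb windows. All 7 loci are named. Regions named are those at a 5′ end, those gained or lost in a comparison, the one with the highest percentile in its weakest library and those passing an adjusted rank test. Other regions in the text were chosen after their values were seen. The members, lists and tests were chosen with earlier results of these data known. Strand and role of each gene are background knowledge, and neighbours follow the gene order of the RefSeq GRCh38 table. No 2 lists shared more than 0.0284% of peaks with identical values. The scripts were tested on simulated data, and the union equalled that of bedtools 2.31.1. Analyses used Python 3.11.15, numpy 2.4.6, pandas 2.3.3 and scipy 1.17.1. Alternatives were a score of at least 100, coverage of at least 50% of a region, lists of equal size, windows of 10 and 100 kb, summed scores, full-list percentiles, omission of single libraries, and a block by letter.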

Additional observations from a re-analysis of the deposited data

Results flagged for a closer look

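The effect of erlotinib was compared between the ALDH fractions in 20 tests of the members, and 2 had an unadjusted exact permutation p under 0.05. The share of all regions or windows under this p is not given here. The count is therefore no result about the members. At PMAIP1 the treatment effect on called bases in ALDH-high minus that in ALDH-low was -3.495 kb (exact permutation p = 0.045, adjusted p = 1): the ALDH-low mean went from 3.69 to 9.53 kb and the ALDH-high mean from 7.08 to 9.43 kb. The ALDH-low DMSO lists were the shortest of all, and the part of list length in this difference was not tested. At the BCL2L1 region 18.5 kb into the gene (chr20:30291866-30293170) the rank effect differed by 51.23 percentile points (exact permutation p = 0.015, adjusted p = 0.779). ALDH-low libraries stood at 49.7, 73.2 and 61.8 under DMSO and at 39.3, 9.63 and 11.0 under erlotinib, whereas ALDH-high libraries stood at 53.0, 42.6 and 51.5 and at 65.4, 44.9 and 65.7.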

How the results depend on the processing

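Of 885 values under alternatives, 779 counted as unchanged: tested values with the same direction and side of the threshold, and counts within 1.5 times the main count, so that 3 to 4 or 3 to 2 is not listed. The cause of the changes below was not tested. Gained and lost member regions are few, so their counts moved easily. Genome shares were not computed under the alternatives, so the changed counts are no result about the members. For DTP against PC9, 3 gained became 5 when peaks had to cover 50% of a region, 1 with a window of 10 kb and 5 with 100 kb, and 1 lost became 0 with a score of at least 100 and 0 with 10 kb. For erlotinib in ALDH-low cells, 3 gained became 5 at 50% coverage, 1 in lists of equal size and 5 with 100 kb. In ALDH-high cells, 3 gained became 1 with 10 kb and 5 with 100 kb, and 0 lost became 1 in lists of equal size. ALDH-high against ALDH-low under DMSO gained 1 with a score of at least 100 and 2 at 50% coverage, and under erlotinib lost 1 with 100 kb. Leaving out 1 library gave 3 to 6 gained and 1 to 2 lost for DTP, 3 to 6 gained and 0 to 2 lost for ALDH-low erlotinib, 3 to 5 gained and 0 to 1 lost for ALDH-high erlotinib, 0 to 2 gained and 0 to 2 lost between fractions under DMSO, and 0 to 2 gained under erlotinib.

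Calls higher under erlotinib numbered 5 at unadjusted p with a score of at least 100, and 3 passed adjustment when only regions able to reach p under 0.05 were tested. Genome shares were not computed for either count. By fraction, 0 to 1 passed at unadjusted p with 1 library left out. Full-list percentiles raised the members ranked higher under erlotinib from 3 to 7 at unadjusted p and from 0 to 5 at adjusted p. Genome shares were not computed for these counts, and list length moved with treatment, so they are no result about the members. The same setting turned the difference to 6.5 points 32.2 kb upstream of MCL1, 4.707 at 24.4 kb and 4.047 at 41.6 kb upstream of BBC3. With missing libraries at percentile 0, 8 were higher and 3 lower at unadjusted p, and 4 higher and 1 lower at adjusted p. The call at BMF 39.4 kb was lost without ALDH-low erlotinib a, b or c (33.78 to 36.21 points, adjusted p 0.0624 to 0.0645).

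Called bases under erlotinib missed the adjusted threshold in lists of equal size (2.405 kb at BMF, 2.931 at PMAIP1, 1.962 at MCL1, and -0.5263, reversed, at BCL2L1) and with windows of 10 kb (1.352 at BMF, 0.8765 at PMAIP1). With 1 library left out the difference was 3.851 to 4.394 kb at PMAIP1 (missed without ALDH-high DMSO c), 2.534 to 3.258 at MCL1 (missed without any 1 of the ALDH-high DMSO libraries or ALDH-low erlotinib a) and 0.8704 to 1.666 at BCL2L1 (passed without ALDH-high erlotinib b). Differences that failed the test and changed sign were, by fraction, -0.6093 at BMF and -0.4773 at BCL2 in lists of equal size and -0.01017 at MCL1 with 10 kb. For DTP they were -0.079 at BCL2L11, -1.234 at BMF and 1.168 at PMAIP1 in lists of equal size, -0.4777 at BMF and 0.64 at PMAIP1 with a score of at least 100, 0.7303 at PMAIP1 with 10 kb and 0.09333 at BCL2 with 100 kb. Leaving out 1 library gave -0.3523 to 1.128 at BMF, -0.3532 to 0.2258 at PMAIP1 (0.1503 without DTP a) and -0.5483 to 0.1342 at BCL2 (0.01117 without PC9 c). Rank differences that failed the test changed sign in the same way, from -9.424 to 5.818 points 32.2 kb upstream of MCL1, from -0.5621 to 2.419 at BCL2 47.3 kb, from -7.882 to 2.534 at BBC3 24.4 kb and from -5.479 to 2.818 at BBC3 41.6 kb.

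Same-letter libraries did not deviate together over 11052 regions (r from -0.0242 to 0.0286, own letter closest in 14 of 45). Whether libraries with the same letter share a culture or a batch was not tested. A block by letter, whose smallest exact permutation p is 0.03125, left called bases at 4.027 kb (BMF), 4.096 (PMAIP1) and 2.831 (MCL1) with adjusted p = 0.128 each. With missing libraries at percentile 0, the block left all 5 regions that had passed (MCL1 11.1 kb, BMF 39.4 and 53.3 kb, and BCL2L1 3.3 and 26.8 kb) at adjusted exact permutation p = 0.147. Depth limits every absent call, since no read counts were used here.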
